A study of Mus musculus with 11 samples.

Results

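The mammalian cell cycle is driven by cyclins and cyclin-dependent kinases, and 49 genes of this machinery were examined in GFP-sorted pancreatic β-cells of mice that lack *Raptor*, the defining subunit of mTORC1. The genes were chosen by name as cyclins, their kinases, kinase inhibitors, pocket proteins and E2F factors, Myc proteins, replication enzymes, mitosis genes and 3 growth suppressors or chromatin regulators, and all 49 were found among the 34745 entries of the deposited table. Earlier results of these data were known when they were chosen. Expression was given as FPKM (fragments per kilobase of transcript, scaled to the sequencing depth), which is corrected for gene length, so that levels of different genes can be set beside each other. Of the 49 genes, 30 reached 1 FPKM in at least 3 of the 11 libraries and entered the test across all 11251 such genes, and 19 lay below that minimum and were tested one by one.

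The libraries came from 3 wild-type (WT) samples, 4 samples of diabetic βRapKOGFP mice and 4 samples of βRapKOGFP mice made euglycemic with insulin. Knockout mice carried RIP-Cre, which acts in insulin-expressing cells, floxed *Raptor* and a Rosa26 GFP reporter that Cre switches on and that stays on in the descendants of a cell. WT littermates carried RIP-Cre and the GFP reporter with intact *Raptor*, so Cre and GFP are common to all 3 groups. All were male, of C57BL/6 x 129SV background and 8 weeks old, and the euglycemic group had received insulin for the last 4 weeks. Islets were dispersed and GFP-positive cells sorted, so a cell that had carried insulin once was kept whatever it expressed at the time of sorting. Separate animals are not stated for each library, and the p-values then measure only the spread between these samples. Both knockout groups were compared with the same 3 WT libraries, and the comparisons with WT are therefore not independent.

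D-type cyclins with Cdk4 or Cdk6, and then cyclin E with Cdk2, phosphorylate the retinoblastoma pocket proteins and release E2F factors, which switch on genes for DNA replication. Cyclin A and cyclin B with Cdk1 carry the cell through G2 and mitosis, and the INK4 and Cip/Kip inhibitors restrain these kinases. Adult β-cells divide rarely, and in the mouse their replication is known to depend on cyclin D2 and Cdk4.

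Inferred depth ranged from 9496650 to 16642308 fragments, at which 1 fragment on a 1 kb transcript is worth 0.0601 to 0.105 FPKM. *Rptor*, the targeted gene, was lower over both knockout groups than in WT (log2 difference in FPKM + 1 of -0.57, two-sided exact permutation p = 0.00606), with exact p = 0.0286 in euglycemic and 0.0571 in diabetic mice. Libraries differed in more than genotype. Diabetic library 1 listed only 6.17% of 27403 genes at 0 against 36.8% to 52.2% in the others, and held the highest sums of endothelial (53.6 FPKM over 9 markers), stromal (21.8 FPKM over 7 markers) and leukocyte markers (69.4 FPKM over 7 markers). Euglycemic library 4 had the fewest fragments, 52.2% of genes at 0 and the highest acinar sum (4771 FPKM over 11 markers). In bulk samples such as these, fewer cells of a type and less RNA per cell cannot be told apart.

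Transcripts of the A- and B-type cyclins, *Cdk1* and most mitosis genes were lower than in WT in most *Raptor*-deficient libraries, whereas *Cdkn1a*, *Myc* and *Rrm2* were higher in all 8 of them than in any WT library, and the D-type cyclins, *Cdk4* and most replication genes overlapped between the groups. *Ccnb2*, cyclin B2, was the only member that passed the test (adjusted p of 0.05 or less and at least 1.5-fold). It fell in the euglycemic group and over both knockout groups together, but it reached the minimum of 1 FPKM only in its 3 WT libraries and in no knockout library, so the group in which it was high brought it into the test. Members under 1 FPKM in WT as well could not enter that test. In the comparison of diabetic mice with WT, 0 of 30 tested members were called, against 0.969% of all genes tested. The corresponding counts were 1 of 30 for euglycemic mice against a background of 0.551%, 1 of 30 for both knockout groups against 1.05%, and 0 of 30 for diabetic against euglycemic mice, where 0.00889% of genes were called.

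**Figure D1:**
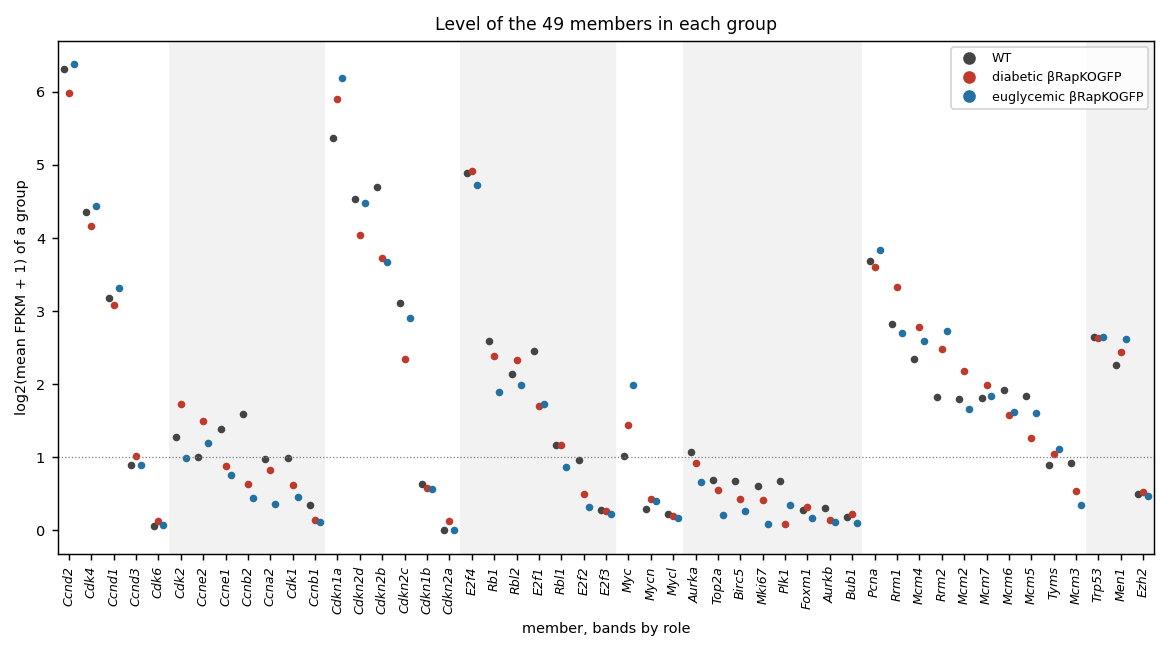
Level of each of the 49 members in each group, as log2 of the group's mean FPKM + 1, with the members in bands by role, 1 point per group and a dotted line at a mean of 1 FPKM. *Ccnd2*, with a mean of 74.1 FPKM over the 11 libraries, and *Cdkn1a*, with 58.5 FPKM, were the most abundant members, and 23 members had a mean under 1 FPKM.

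Without the adjustment for multiple testing, limma gave p of 0.05 or less for 6 members in diabetic mice (20% of 30, against 11.9% of all genes), for 9 in euglycemic mice (30% against 13.9%), for 4 between diabetic and euglycemic mice (13.3% against 20.6%) and for 9 over both knockout groups (30% against 11.3%). The median log2 fold change of the 30 tested members was -0.05 in diabetic and -0.14 in euglycemic mice, beside 0.01 and -0.01 for all genes tested. Thus 13 members had such a p in at least 1 comparison and 17 had none. All adjusted p-values below are from limma with Benjamini-Hochberg adjustment over the 11251 genes.

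Promoter sequences are shown first for *Ccnb2* and for 4 members whose values were separated from WT in at least 1 knockout group without a call, because cell cycle genes of late phases are known for 2 short promoter elements. These are the CHR (searched as TTTGAA) and the CCAAT box (searched as CCAAT), each on both strands, and a pair of such matches can share at most 1 base. Each sequence runs from 250 bases before to 20 bases after the RefSeq start on GRCm38.p6, written 5′ to 3′ on the strand of the gene. Capitals mark the CHR and CCAAT letters, and in *Cdkn1a* they mark a CATGNNNNNNCATG match, the core of p53 response elements.
Ccnb2 (chr9:70421535-70421804, minus strand): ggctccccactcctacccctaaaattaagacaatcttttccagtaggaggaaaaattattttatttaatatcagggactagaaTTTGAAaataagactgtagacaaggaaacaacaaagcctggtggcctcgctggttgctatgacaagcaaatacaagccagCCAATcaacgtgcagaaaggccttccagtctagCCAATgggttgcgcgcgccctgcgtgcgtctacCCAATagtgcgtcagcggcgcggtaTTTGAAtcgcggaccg
Ccnb1 (chr13:100786467-100786736, minus strand): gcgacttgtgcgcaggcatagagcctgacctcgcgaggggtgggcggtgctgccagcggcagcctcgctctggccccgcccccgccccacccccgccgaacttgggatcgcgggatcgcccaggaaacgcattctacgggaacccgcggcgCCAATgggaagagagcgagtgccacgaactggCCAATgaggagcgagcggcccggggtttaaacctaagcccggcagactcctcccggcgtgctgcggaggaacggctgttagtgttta
Mki67 (chr7:135716360-135716629, minus strand): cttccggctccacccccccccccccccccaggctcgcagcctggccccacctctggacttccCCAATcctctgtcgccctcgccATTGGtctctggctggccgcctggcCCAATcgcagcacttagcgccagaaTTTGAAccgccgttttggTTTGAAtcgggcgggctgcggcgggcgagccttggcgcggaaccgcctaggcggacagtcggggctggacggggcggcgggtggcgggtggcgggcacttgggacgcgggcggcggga
Rrm2 (chr12:24708004-24708273, plus strand): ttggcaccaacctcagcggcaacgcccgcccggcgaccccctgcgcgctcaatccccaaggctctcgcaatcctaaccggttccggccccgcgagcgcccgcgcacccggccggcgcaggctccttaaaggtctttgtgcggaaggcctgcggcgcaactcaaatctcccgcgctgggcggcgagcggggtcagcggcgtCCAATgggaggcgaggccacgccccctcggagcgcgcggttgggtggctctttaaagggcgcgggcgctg
Cdkn1a (chr17:29090729-29090998, plus strand): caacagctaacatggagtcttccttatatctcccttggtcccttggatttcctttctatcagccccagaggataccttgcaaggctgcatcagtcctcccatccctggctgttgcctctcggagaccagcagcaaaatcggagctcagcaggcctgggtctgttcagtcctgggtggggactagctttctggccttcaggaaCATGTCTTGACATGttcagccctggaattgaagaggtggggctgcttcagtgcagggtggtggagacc

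The *Ccnb2* promoter held 3 CCAAT boxes, whose first bases lie 87, 54 and 21 bases before the start, and 2 CHR matches, 1 of them 167 bases before and 1 just after the start. *Ccnb1* held CCAAT boxes at 99 and 67 bases and no CHR match, whereas *Mki67* held CHR matches at 116 and 98 bases with 3 CCAAT boxes further upstream. In *Rrm2* there was 1 CCAAT box at 50 bases, and in *Cdkn1a* the CATG pair lay 48 bases before the start shown. RefSeq gives *Cdkn1a* 2 starts, and the window of the other one held no such pair. RefSeq windows were matched for 39 of the 49 members. In windows reaching from 250 bases before to 50 after the start, TTTGAA and CCAAT occurred together in 6 of the 9 matched members of the cyclin A, cyclin B, *Cdk1* and mitosis group (66.7%), against 7.97% of all 27025 genes with a window. Regardless of the other element, TTTGAA was found in 20.2% and CCAAT in 41.1% of all genes. The E2F letters GGCGGGAA were found in 3 of 39 members (7.69%), in 0 of those 9, and in 2.52% of all genes. The CATG pair occurred in 0.833% of all genes. A match describes the letters in the window and is not evidence of binding.

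Cyclin B2, a partner of *Cdk1* at entry into mitosis (*Ccnb2*, ENSMUSG00000032218, chr9:70407692-70421547, minus strand), measured 1.70, 2.13 and 2.25 FPKM in WT. It measured 0.904, 0.199, 0.469 and 0.627 FPKM in diabetic and 0.545, 0.568, 0.345 and 0 FPKM in euglycemic libraries. Every knockout library was below every WT library. The log2 fold change was -1.17 (SE 0.22, 95% interval -1.64 to -0.69, adjusted p = 0.0348) in euglycemic mice and -1.07 (95% interval -1.496 to -0.652, adjusted p = 0.0202) over both knockout groups. In diabetic mice it was -0.98 (SE 0.22, adjusted p = 0.0580), which missed the threshold, and the difference between diabetic and euglycemic mice was 0.19 (adjusted p = 0.626). As stated above, *Ccnb2* entered the fit only through WT, where its values rest on 35.7 to 46.7 estimated fragments. With the tested genes kept the same, the adjusted p over both knockout groups was 0.0396 without WT library 1, 0.142 without WT library 2 and 0.136 without WT library 3. For euglycemic mice it was 0.0261, 0.197 and 0.206. Leaving out a knockout library kept the call over both groups, but ended the euglycemic call without diabetic library 3 or 4 (adjusted p = 0.0618 and 0.0510) or euglycemic library 1, 2 or 3 (0.0628, 0.0740 and 0.0801), while *Ccnb2* passed in diabetic mice without euglycemic library 4 (0.0215).

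The other A- and B-type cyclins and *Cdk1*, the kinase that cyclin B activates, lay below the minimum and were compared on log2(FPKM + 1) with two-sided exact permutation tests. The smallest p these allow is 0.0286 for a single knockout group against WT and 0.00606 for both, and the p-values of these 19 low members are unadjusted. *Ccnb1*, cyclin B1, measured 0.244, 0.251 and 0.303 FPKM in WT, 0.139, 0, 0.171 and 0.120 in diabetic and 0.0746, 0.209, 0.0496 and 0 in euglycemic libraries. Again no knockout library reached the lowest WT library (both groups, difference -0.21, exact p = 0.0121), although 42.1% of the 50-base stretches of its transcripts also occur in transcripts of 6 other genes and its reads may be split with them. *Ccnb1* rests on 7.42 to 10.2 estimated fragments in WT and 7.73 in euglycemic library 2, so the separation there turns on depth scaling. *Cdk1* was at 1.25, 0.840 and 0.869 FPKM in WT, at 0.946, 0.367, 0.693 and 0.112 in diabetic and at 0.383, 0.699, 0.398 and 0 in euglycemic libraries (both groups, difference -0.48, exact p = 0.0364). *Ccna2*, cyclin A2, was at 0.765 to 1.27 FPKM in WT, 0.391 to 1.14 in diabetic and 0.0168 to 0.601 in euglycemic libraries. For *Cdk1* and *Ccna2* all euglycemic libraries lay below WT, while diabetic library 1 and, for *Ccna2*, also diabetic library 4 (0.795 FPKM) lay among the WT values.

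Of the 8 mitosis genes, *Mki67*, *Top2a*, *Aurkb* and *Birc5* were lower in every euglycemic than in every WT library. *Mki67*, which encodes the proliferation antigen Ki-67 (chr7:135689784-135716361), measured 0.246, 0.576 and 0.740 FPKM in WT, 0.922, 0.142, 0.287 and 0 in diabetic and 0.0536, 0.127, 0.0528 and 0 in euglycemic libraries. The euglycemic libraries lay wholly below WT (difference -0.51, exact p = 0.0286), and diabetic library 1 was the highest of all 11. *Top2a*, the topoisomerase that untangles sister chromatids, likewise reached 1.13 FPKM in diabetic library 1 against 0.413 to 0.816 in WT and 0 to 0.270 in euglycemic libraries (euglycemic difference -0.48, exact p = 0.0286). *Plk1*, a kinase of mitotic entry and spindle function, measured 0.472, 0.572 and 0.729 FPKM in WT, 0.201, 0.0316, 0 and 0 in diabetic and 0.111, 0.707, 0.288 and 0 in euglycemic libraries (diabetic difference -0.59, exact p = 0.0286). *Aurkb*, the kinase of the chromosomal passenger complex, was at 0.190 to 0.275 FPKM in WT and at 0 to 0.176 in every knockout library (both groups, difference -0.18, exact p = 0.0121). These values rest on 5.03 to 7.38 estimated fragments in WT and 5.70 in euglycemic library 1, so the separation there turns on depth scaling. *Birc5*, survivin, belongs to the same complex and was at 0.488 to 0.767 FPKM in WT and 0 to 0.735 in the knockouts, with exact p = 0.0606 over both groups. *Aurka*, the spindle pole kinase and the only mitosis member in the fit, ranged from 0.731 to 1.502 FPKM in WT and from 0.0542 to 1.62 in the knockouts, which overlapped. *Foxm1*, a transcription factor of G2 genes, and *Bub1*, a spindle checkpoint kinase, stayed under 0.5 FPKM in every library, and their groups overlapped.

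**Figure D2:**
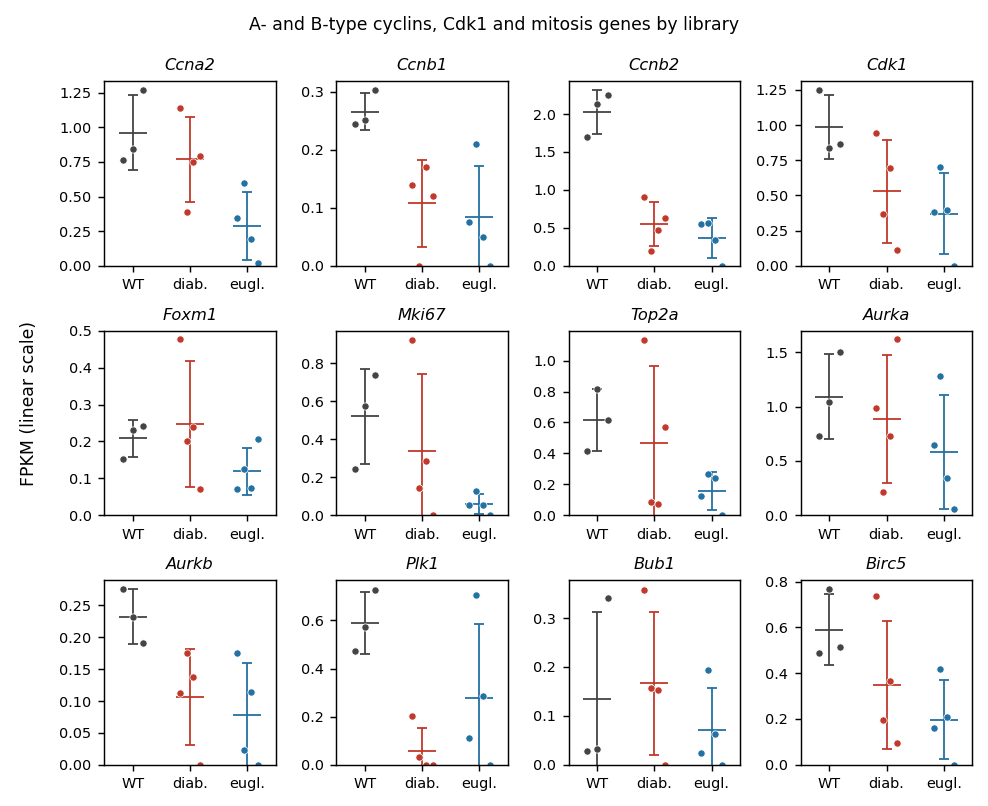
FPKM in each library, on a linear scale, for the 12 members of the cyclin A, cyclin B, *Cdk1* and mitosis group, with 1 point per library and bars for the mean and SD of WT (n = 3), diabetic (n = 4) and euglycemic (n = 4) βRapKOGFP. For *Ccnb2*, *Ccnb1* and *Aurkb* all 8 knockout points lie below the WT points, and for *Mki67* and *Top2a* 1 diabetic library lies above them.

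Summed over these 12 members, expression was 6.76, 8.33 and 9.57 FPKM in WT, 8.05, 2.16, 4.06 and 4.01 FPKM in diabetic and 2.71, 5.23, 2.37 and 0.279 FPKM in euglycemic libraries. All knockout sums but that of diabetic library 1, which lay inside the WT range, were below the lowest WT sum. Diabetic library 1 was also the highest knockout library for 8 of the 12 genes, and it carried the endothelial, stromal and leukocyte transcripts given above, whose part in the result was not tested. Endothelial sums were 1.98 to 4.80 FPKM in WT, 9.18 to 16.5 in the other 3 diabetic libraries and 2.13 to 5.30 in the euglycemic libraries. Acinar sums were 4.00 to 43.0 FPKM in WT, 2415, 1213, 1373 and 16.4 FPKM in the diabetic and 995, 15.2, 15.9 and 4771 FPKM in the euglycemic libraries. Islet hormone cell markers were higher in every knockout library, with α-cell sums (5 markers) of 1047 to 2438 FPKM in WT and 3935 to 23767 in the knockouts, and δ- and PP-cell sums (4 markers) of 2088 to 3579 and 9018 to 26071 FPKM. Duct sums (6 markers) were 58.1 to 71.8 FPKM in WT, 57.8 to 88.4 in diabetic and 97.1 to 133 in euglycemic libraries. Over both knockout groups, 1 α-cell, 3 δ- or PP-cell, 2 duct and 0 acinar markers were called higher. Called lower over both groups were the β-cell glucose transporter gene *Slc2a2*, 1 of 8 β-cell markers (log2 fold change -1.93, adjusted p = 0.00136), and the B-cell gene *Cd79a*, 1 of 7 leukocyte markers (-3.14, adjusted p = 0.000162). *Cd79a* measured 20.1, 8.203 and 9.22 FPKM in WT and 0 to 1.10 FPKM in the knockouts, while *Ptprc*, the general leukocyte gene, and the T-cell gene *Cd3e* were listed at 0 in all WT libraries. Leukocyte sums, with *Cd79a* and the macrophage gene *Lyz2* among their 7 genes, were 22.05, 8.27 and 9.73 FPKM in WT, 69.4, 18.8, 1.71 and 0.552 FPKM in the diabetic and 0.729, 1.60, 3.23 and 11.7 FPKM in the euglycemic libraries. Thus 5 of the 8 knockout sums lay below WT. Most of each WT sum was *Cd79a*, so the lower knockout sums reflect mainly that gene and not the leukocyte markers together. Diabetic library 2 (18.8 FPKM) and euglycemic library 4 (11.7 FPKM) lay inside the WT range of leukocyte sums, while their mitotic sums were below WT. The part of the leukocyte transcripts in the result was not tested. At the other end, euglycemic library 4 listed 9 of the 12 genes at 0. Low-level members with an exact p of 0.05 or less over both knockout groups numbered 5 of 19 (*Ccnb1*, *Cdk1*, *Aurkb*, *Plk1* and the replication gene *Mcm3*), all lower in the knockouts, against 5.07% of the 5365 genes that reached 0.1 FPKM in 3 libraries but not the minimum. Of the 19, 17 reached that level and *Cdk6* and *Cdkn2a* did not. The count depended on single libraries, with 2 without WT library 3 or euglycemic library 1, 3 without WT library 1 or 2, diabetic library 2 or euglycemic library 3, and 9 without diabetic library 1 (against 7.16% of those genes). Without diabetic library 1, the exact p over both groups was 0.0167 for *Mki67*, 0.0167 for *Top2a* and 0.00833 for *Birc5*.

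**Figure D3:**
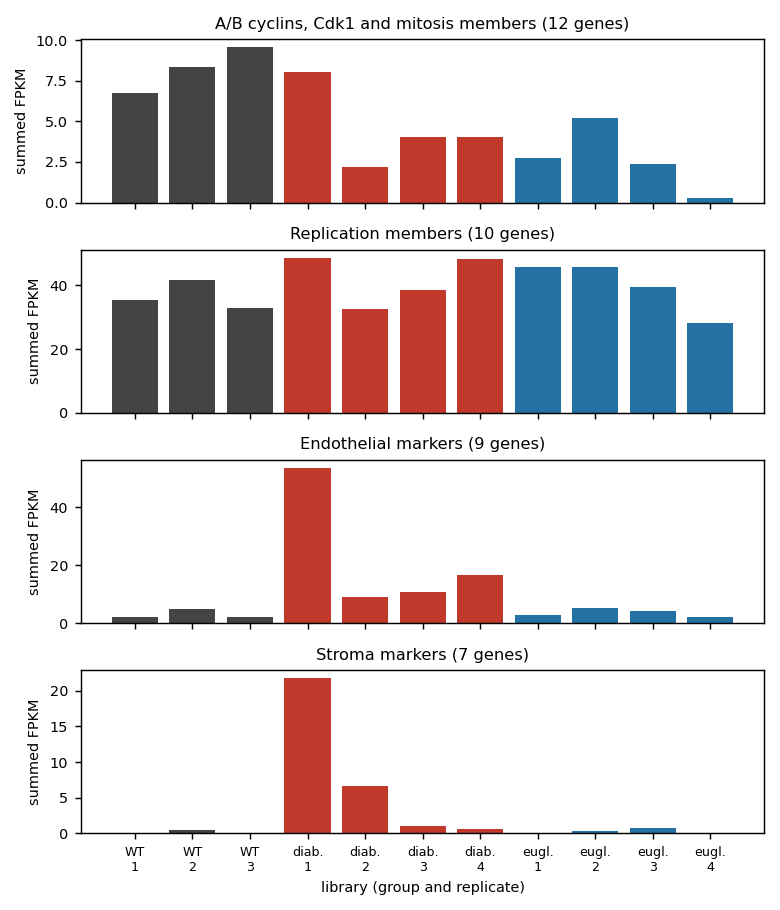
Summed FPKM in each of the 11 libraries for the 12 cyclin A, cyclin B, *Cdk1* and mitosis members, the 10 replication members, 9 endothelial markers and 7 stromal markers, on linear axes that start at 0. The mitotic sum of diabetic library 1 (8.05 FPKM) stands among the WT bars, its endothelial (53.6 FPKM) and stromal (21.8 FPKM) bars stand far above WT, and the replication sums of WT and knockouts overlap.

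Counted over all 49 members, 12 (24.5%) were lower in every euglycemic than in every WT library, against 3.2% of the 27403 genes above 0. They were *Aurkb*, *Birc5*, *Ccna2*, *Ccnb1*, *Ccnb2*, *Ccne1*, *Cdk1*, *Cdk2*, *E2f1*, *E2f2*, *Mki67* and *Top2a*, of which 8 belong to the mitotic group of 12. By level, they were 5 of the 30 members in the fit (16.7%, against 5.02% of all genes in the fit) and 7 of the 19 below it (36.8%, against 5% of genes that reached 0.1 FPKM in 3 libraries but not the minimum). Of the 5 in the fit, *Ccnb2* and *E2f2* reached 1 FPKM in 3 and 2 WT, 0 and 1 diabetic and 0 euglycemic libraries. They entered through libraries in which they were high, so the share of 16.7% is not independent of the filter. In diabetic mice 6 members (12.2%, against 3.43% of genes above 0) were below every WT library, namely *Aurkb*, *Ccnb1*, *Ccnb2*, *Cdkn2c*, *E2f1* and *Plk1*. These were 3 members in the fit, against 6.88% of genes there, and 3 below it, against 2.74%. Over both groups 4 were lower (*Aurkb*, *Ccnb1*, *Ccnb2* and *E2f1*), against 0.956% of genes above 0, 1.78% of those in the fit and 0.988% of those below it. *Ccnb2*, which entered the fit only through WT, is counted among the members in the fit here and in the diabetic comparison too.

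In the other direction, 5 members were higher in every euglycemic library than in WT, namely *Cdkn1a*, *Men1*, *Myc*, *Rrm2* and *Tyms* (against 2.92% of genes above 0 and 5.91% of those in the fit). *Tyms* reached 1 FPKM in 0 WT, 2 diabetic and 4 euglycemic libraries and so entered the fit only through the knockout groups. *Myc* did so in 1 WT, 4 diabetic and 4 euglycemic libraries, so it too entered through the groups where it was high. The members higher in every diabetic library were 3, *Cdkn1a*, *Myc* and *Rrm2* (against 3.95% and 6.67%), and over both groups they were the same 3 (against 0.949% and 1.9%). All of these members were in the fit, so 3 of 30 (10%) in the diabetic comparison lie close to that background.

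The D-type cyclins and their kinases, which act first in G1, showed no such separation. *Ccnd2*, cyclin D2 (chr6:127125162-127152193), was the most abundant member and measured 51.6, 89.0 and 95.7 FPKM in WT, 59.5, 62.9, 70.7 and 56.5 in diabetic and 92.2, 95.7, 94.8 and 46.7 in euglycemic libraries. Its groups overlapped, and the log2 fold change over both knockout groups was -0.11 (95% interval -0.65 to 0.42), a sign that turned when WT library 3 or euglycemic library 4 was left out. *Cdk4* stood at 25.2, 15.4 and 17.9 FPKM in WT, 12.4, 15.03, 19.7 and 20.4 in diabetic and 21.9, 18.02, 21.6 and 21.4 in euglycemic libraries (-0.042, 95% interval -0.46 to 0.38, also of either sign when single libraries were left out). Exons of *Cdk4* overlap those of *Tspan31* on the other strand over 19.7% of their length, and the libraries did not mark strand. *Ccnd1* ranged from 4.67 to 11.5 FPKM, *Ccnd3* from 0.634 to 1.22 and *Cdk6* from 0.00614 to 0.212 FPKM over all libraries, with overlapping groups for each, so that cyclin D2 with Cdk4 was the main pair at the RNA level in all 3 groups.

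Among the G1/S cyclins, *Ccne1*, cyclin E1, measured 1.34, 1.75 and 1.77 FPKM in WT, 0.940, 0.626, 1.35 and 0.428 in diabetic and 1.21, 1.15, 0.407 and 0 in euglycemic libraries. All euglycemic values were below WT (-0.70, adjusted p = 0.295), and diabetic library 3 touched the lowest WT value. *Ccne2*, cyclin E2, ranged from 0.757 to 1.15 FPKM in WT and from 0.841 to 2.58 in the knockouts. *Cdk2*, their kinase, was nearly equal in the WT libraries at 1.44, 1.42 and 1.43 FPKM, and measured 3.13, 0.757, 3.39 and 2.02 in diabetic and 1.16, 1.19, 0.766 and 0.822 in euglycemic libraries. The diabetic libraries lay on both sides of WT while the euglycemic ones were all below it, and the difference between diabetic and euglycemic mice was 0.67 (SE 0.26, adjusted p = 0.184).

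The CDK inhibitors did not move in 1 direction. *Cdkn1a*, which encodes the Cip/Kip inhibitor p21 and is a p53 target (chr17:29090976-29100727), measured 31.9, 40.5 and 48.3 FPKM in WT, 53.4, 69.2, 62.0 and 50.1 in diabetic and 76.2, 94.0, 66.8 and 50.7 in euglycemic libraries. Means were 40.3 ± 8.18 (SD, n = 3), 58.7 ± 8.63 (n = 4) and 71.9 ± 18.1 FPKM (n = 4). Each knockout library exceeded each WT library, narrowly for the closest pair (50.1 and 48.3 FPKM), and the fold changes did not pass the adjustment (0.54 with adjusted p = 0.385 in diabetic, 0.81 with adjusted p = 0.162 in euglycemic mice, 0.67 with adjusted p = 0.192 over both). The other Cip/Kip member, *Cdkn1b* (p27), stayed between 0.311 and 0.686 FPKM in all libraries.

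Of the INK4 inhibitors, which bind Cdk4 and Cdk6, *Cdkn2c* (p18, chr4:109660876-109667189) measured 7.47, 9.23 and 6.16 FPKM in WT, 4.31, 3.98, 3.84 and 4.27 in diabetic and 7.37, 7.62, 4.19 and 6.89 in euglycemic libraries. It was lower in every diabetic than in every WT library (-0.74, SE 0.21, adjusted p = 0.150), whereas 3 euglycemic libraries lay in the WT range (diabetic against euglycemic -0.53, adjusted p = 0.172). *Cdkn2d*, p19, was at 27.2, 19.2 and 20.1 FPKM in WT, 12.1, 12.0, 16.6 and 21.0 in diabetic and 25.4, 20.6, 18.01 and 21.6 in euglycemic libraries. These values were again lowest in 3 diabetic libraries and close to WT in the euglycemic ones (diabetic against WT -0.52, adjusted p = 0.397). *Cdkn2b*, p15, was at 43.8, 12.9 and 17.8 FPKM in WT, 9.34, 10.3, 11.5 and 17.8 in diabetic and 7.37, 11.3, 24.3 and 4.15 in euglycemic libraries, where WT library 1 stood far above the others and the groups overlapped (-0.95 over both groups, adjusted p = 0.433, and -0.46 without WT library 1). *Cdkn2a*, the locus of p16 and p19Arf that rises with age in β-cells, was listed at 0 in all libraries but diabetic libraries 1 and 2, at 0.132 and 0.218 FPKM.

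*E2f1*, an activating E2F factor (chr2:154559407-154569892), measured 3.07, 5.26 and 5.15 FPKM in WT, 2.48, 1.59, 2.56 and 2.39 in diabetic and 2.84, 3.03, 2.17 and 1.23 in euglycemic libraries. Means were 4.49 ± 1.23, 2.25 ± 0.447 and 2.32 ± 0.812 FPKM (SD, n = 3, 4 and 4). Every knockout library lay below WT, with a log2 fold change of -0.74 over both groups (SE 0.22, adjusted p = 0.174), but the lowest WT and highest euglycemic libraries nearly met. *E2f2*, the related activator, was at 0.521, 1.17 and 1.15 FPKM in WT, 1.01, 0.272, 0.370 and 0 in diabetic and 0.221, 0.385, 0.354 and 0.0215 in euglycemic libraries, so that the euglycemic values alone stood apart (-0.63, adjusted p = 0.280). It reached 1 FPKM in 2 WT, 1 diabetic and 0 euglycemic libraries, so libraries in which it was high brought it into the fit. *E2f4*, a factor that acts mostly in repression and is the most abundant of this role, was at 26.6, 29.7 and 29.9 FPKM in WT, 25.9, 31.0, 26.4 and 33.6 in diabetic and 22.2, 16.9, 21.4 and 40.9 in euglycemic libraries, without separation. *Rb1*, the retinoblastoma gene, measured 4.00, 5.87 and 5.18 FPKM in WT, 5.21, 3.19, 4.74 and 3.68 in diabetic and 4.14, 2.65, 3.27 and 0.789 in euglycemic libraries (euglycemic -0.79, adjusted p = 0.290, and -0.47 without euglycemic library 4), and its groups overlapped. The pocket protein genes *Rbl1* (0.313 to 2.19 FPKM) and *Rbl2* (1.93 to 5.12 FPKM) and the activator *E2f3* (0 to 0.503 FPKM) overlapped between all groups.

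**Figure D4:**
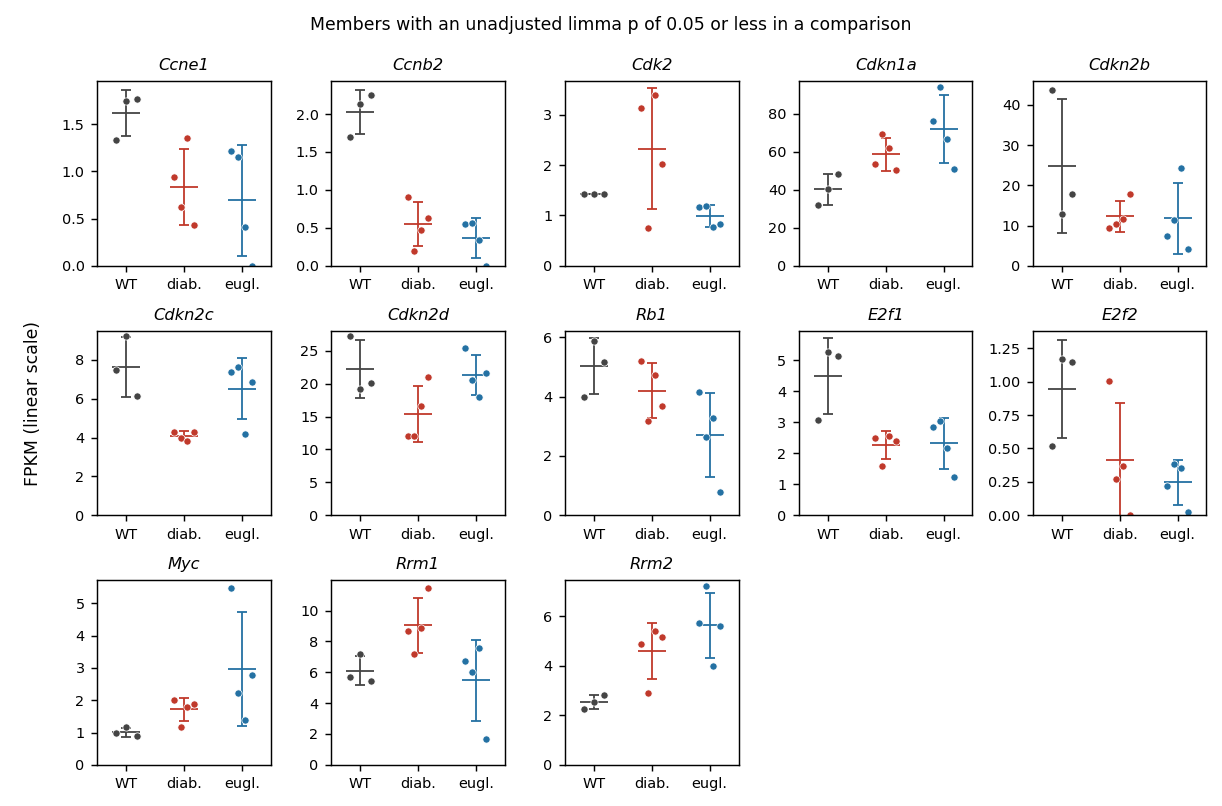
FPKM in each library, on linear axes, for the 13 members with an unadjusted limma p of 0.05 or less in a comparison, with 1 point per library and bars for mean and SD (WT n = 3, diabetic n = 4, euglycemic n = 4). For *Cdkn1a*, *Myc* and *Rrm2* all knockout points lie above WT, for *Ccnb2* and *E2f1* all lie below, and *Cdkn2c* is low in the diabetic group.

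*Myc*, a transcription factor that drives growth and entry into the cycle (chr15:61985391-61990374), measured 0.974, 1.17 and 0.899 FPKM in WT, 2.002, 1.18, 1.79 and 1.88 in diabetic and 5.49, 2.21, 1.39 and 2.77 in euglycemic libraries. Means were 1.01 ± 0.14, 1.71 ± 0.364 and 2.97 ± 1.77 FPKM (SD, n = 3, 4 and 4). All knockout libraries were above WT, diabetic library 2 only just, and the euglycemic difference was 0.88 (SE 0.28, adjusted p = 0.202). *Myc* reached 1 FPKM in 1 WT, 4 diabetic and 4 euglycemic libraries, so the groups in which it was high brought it into the fit. The highest value, in euglycemic library 1, stood in the library with the highest sum of immediate early genes (4793 FPKM), genes induced within minutes of handling or stimulation, and their part in the result was not tested. *Mycl* and *Mycn* stayed under 1 FPKM in all libraries and their groups overlapped.

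Replication genes were divided. *Rrm2*, the regulated subunit of ribonucleotide reductase, which makes deoxynucleotides (chr12:24708241-24714146), measured 2.27, 2.53 and 2.84 FPKM in WT, 4.90, 2.91, 5.39 and 5.15 in diabetic and 5.75, 7.21, 3.97 and 5.60 in euglycemic libraries. Means were 2.55 ± 0.284, 4.59 ± 1.13 and 5.63 ± 1.32 FPKM (SD, n = 3, 4 and 4). No knockout library fell into the WT range, and the log2 fold changes were 0.63 in diabetic mice (adjusted p = 0.265), 0.88 in euglycemic mice (SE 0.22, adjusted p = 0.131) and 0.76 over both (SE 0.20, adjusted p = 0.112). *Rrm1*, the other subunit, was at 5.70, 7.18 and 5.41 FPKM in WT, 8.65, 7.16, 8.87 and 11.5 in diabetic and 6.71, 6.01, 7.58 and 1.66 in euglycemic libraries. Here 3 diabetic libraries exceeded all euglycemic ones (0.74, adjusted p = 0.210), and the difference was 0.36 without euglycemic library 4, the lowest of all. *Pcna*, the sliding clamp of DNA polymerase, measured 14.9, 12.3 and 8.58 FPKM in WT, 12.2, 9.58, 10.5 and 12.3 in diabetic and 14.7, 16.7, 15.02 and 6.86 in euglycemic libraries (0.023 over both groups, 95% interval -0.51 to 0.55, of either sign when single libraries were left out), and 31.8% of its 50-base stretches occur in other genes' transcripts. *Tyms*, thymidylate synthase, was at 0.657 to 0.976 FPKM in WT, 0.725 to 1.33 in diabetic and 1.01 to 1.37 in euglycemic libraries, the last wholly above WT.

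The MCM helicase, which unwinds the origins, was carried at 1.78 to 2.84 FPKM for *Mcm2*, 3.57 to 4.78 for *Mcm4*, 1.55 to 3.79 for *Mcm5*, 1.63 to 3.60 for *Mcm6* and 1.94 to 2.99 for *Mcm7* in WT, and the knockout values overlapped these ranges for each gene. *Mcm3* alone lay below the minimum, at 0.445, 0.891 and 1.36 FPKM in WT, 0.776, 0.259, 0.572 and 0.180 in diabetic and 0.313, 0.452, 0.318 and 0 in euglycemic libraries (both groups, difference -0.47, exact p = 0.0364). Summed over the 10 replication members, expression was 35.3, 41.8 and 32.9 FPKM in WT, 48.7, 32.6, 38.4 and 48.2 in diabetic and 45.9, 45.7, 39.3 and 28.2 in euglycemic libraries. The replication sum thus overlapped between the groups in the same libraries whose mitotic sum was mostly below WT.

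Of the growth suppressors and chromatin regulators, *Men1*, which encodes menin, a restraint on islet growth, measured 4.08, 3.29 and 4.02 FPKM in WT, 4.58, 6.60, 3.99 and 2.46 in diabetic and 6.37, 5.32, 4.84 and 4.13 in euglycemic libraries, the last all above WT, by little at the closest pair. *Ezh2*, the Polycomb methyltransferase that silences *Cdkn2a*, lay between 0.236 and 0.734 FPKM in WT and between 0.283 and 0.499 in the knockouts. *Trp53* measured 7.40, 3.60 and 4.81 FPKM in WT, 3.91, 5.48, 4.57 and 6.86 in diabetic and 4.28, 3.79, 7.23 and 5.70 in euglycemic libraries (0.0080 over both groups, 95% interval -0.49 to 0.51, of either sign when single libraries were left out).

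**Figure D5:**
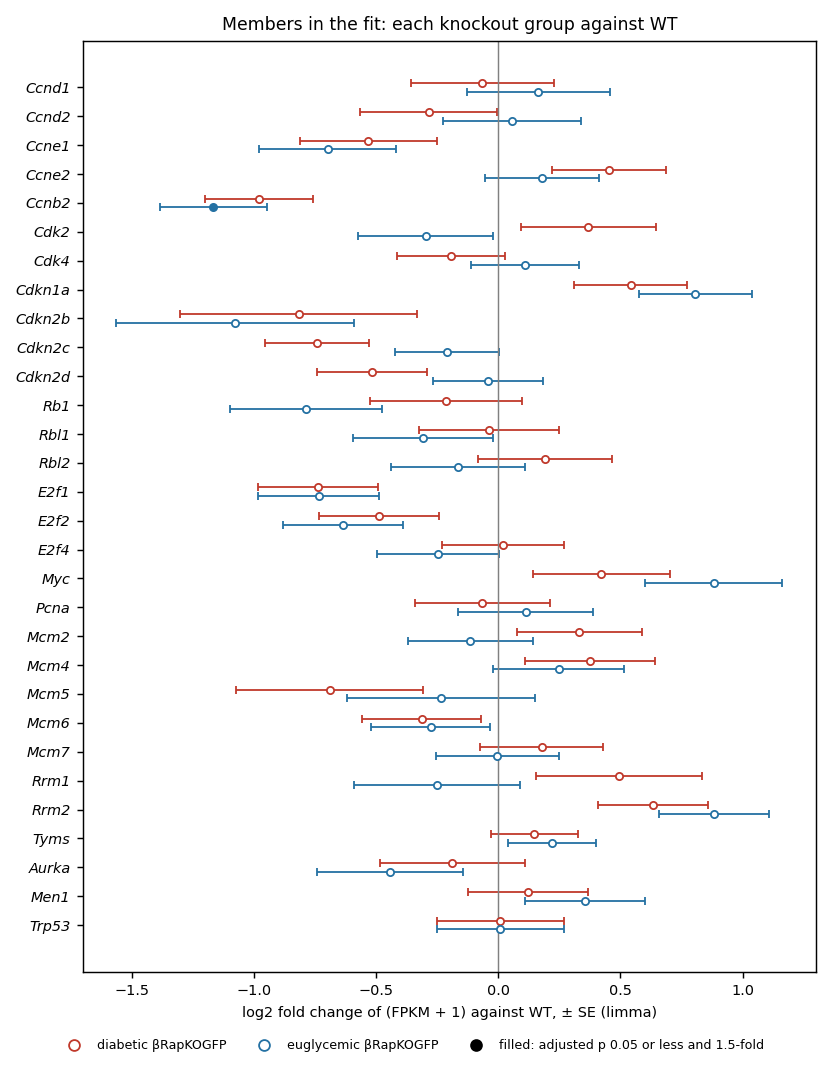
Log2 fold change of FPKM + 1 against WT, with its standard error from limma, for the 30 members in the fit, in diabetic and euglycemic βRapKOGFP, with filled points where the adjusted p was 0.05 or less at 1.5-fold or more. The filled point is *Ccnb2* in euglycemic mice (-1.17), and the 2 groups share their WT libraries.

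Further genes of the same pathways were drawn from lists of replication, mitosis, G1, p53 target and menin or Polycomb genes, of which 129 were found and 85 entered the fit. Only *Gadd45g* and *Fen1* were called in any comparison, *Gadd45g* in diabetic mice (1 of 85, against 0.969% of all genes) and both over the 2 knockout groups together (2 of 85, against 1.05%). With 0 of 85 called in euglycemic mice (against 0.551%) and 0 of 85 between the knockout groups (against 0.00889%), these counts are near the background. *Gadd45g*, a growth arrest and stress gene, measured 332, 319 and 404 FPKM in WT, 76.3, 81.1, 97.3 and 121 in diabetic and 235, 162, 134 and 185 in euglycemic libraries. It fell in diabetic mice (-1.91, SE 0.23, adjusted p = 0.00254) and over both groups (-1.45, adjusted p = 0.00493), and the euglycemic values, also all below WT, missed the threshold (-0.99, adjusted p = 0.0965). *Fen1*, the flap endonuclease that matures Okazaki fragments, was at 1.89, 1.69 and 2.70 FPKM in WT, 5.66, 4.10, 4.50 and 4.76 in diabetic and 4.88, 6.35, 3.95 and 4.52 in euglycemic libraries. It rose over both groups (0.92, SE 0.18, adjusted p = 0.0272), and not in either group alone (adjusted p = 0.0547 and 0.0655). The adjusted p of *Fen1* over both groups was 0.0653, 0.187 and 0.0704 without WT library 1, 2 or 3 and 0.0551 and 0.0539 without diabetic library 1 or 3, so that its call ended in each case. For *Gadd45g* the call over both groups ended without WT library 3 (adjusted p = 0.0526), while that in diabetic mice held without any single library.

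Of 37 further mitosis genes, 11 were abundant enough to test, with a median log2 fold change of -0.33 over both knockout groups, and 9 of the 11 were below 0, beside 50.6% of all genes tested. This list was chosen with earlier results of these data known and is no independent check of the members. None was called, and limma gave an unadjusted p of 0.05 or less for 4 of the 11 (36.4%, against 11.3% of all genes), the kinetochore gene *Ndc80*, the mitotic kinase gene *Pbk* and the ubiquitin-conjugating enzyme gene *Ube2c* with lower and the Cdk-binding gene *Cks1b* with higher values. *Pbk* measured 3.08, 5.89 and 5.77 FPKM in WT, 2.21, 0, 1.13 and 2.27 in diabetic and 1.52, 2.32, 1.39 and 0 in euglycemic libraries. Every knockout library was below every WT library, as for *Ccnb2*. Over both knockout groups the median was 0.02 for 25 further replication genes, 0.04 for 22 G1 genes, -0.24 for 13 p53 targets other than *Cdkn1a*, and 0.09 for 14 menin and Polycomb partners.

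Between diabetic and euglycemic mice no member was separated in either direction (0 of 49), where 3.17% of genes were lower and 3.59% higher in every diabetic library. The 4 members with an unadjusted limma p of 0.05 or less were *Cdk2* and *Rrm1*, higher in diabetic mice, and *Cdkn2c* and *Cdkn2d*, lower in diabetic mice, with adjusted p-values of 0.184, 0.210, 0.172 and 0.224. Of the 19 low members, 0 had an exact p of 0.05 or less in that comparison, against 4.19% of the 5365 genes that reached 0.1 FPKM in 3 libraries but not the minimum, a level that 17 of the 19 reached.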

How the data were processed

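RNA of GFP-sorted β-cells was sequenced as paired-end, poly-A, unstranded libraries, and the authors deposited FPKM per gene for 3 WT, 4 diabetic and 4 euglycemic (insulin-treated) libraries. The study's methods describe Tophat alignment to mm10 and Cufflinks, whereas the submitters' processing notes list HISAT2 2.0.4, StringTie 1.3.0 and edgeR, so which tools made the FPKM is unsettled. Depth was inferred from the FPKM steps of single fragments (92.7% to 97.3% of low values whole within 2%). The columns named KI were read as the insulin-treated samples. FPKM are not counts, so no count model was used. log2(FPKM + 1) was fitted over all 11 libraries with limma 3.58.1 in R 4.3.3 (trended variance, 11251 genes at 1 FPKM or more in at least 3 libraries), checked on simulated data, with Benjamini-Hochberg adjustment. A call needed adjusted p of 0.05 or less and 1.5-fold. The 19 members below the minimum had two-sided exact permutation tests in Python 3.11.15 with scipy 1.17.1. The pseudocount shrinks fold changes of low genes. FPKM covers whole genes, including undeleted exons of *Raptor*. Named in full were members called or with unadjusted p of 0.05 or less, the most abundant of each role, and known β-cell replication genes. The members and lists were chosen with earlier results of these data known. Alternatives changed the filter, pseudocount, scaling, variance model, block and libraries, and those leaving out 2 libraries together or keeping the tested genes fixed were chosen after seeing the data. Coordinates are from GENCODE vM21 on GRCm38 and promoters from RefSeq GRCm38.p6, and 10 members had no matched promoter window. One entry of a further gene list, *Sgol1*, was not found under that symbol.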

Additional observations from a re-analysis of the deposited data

Results flagged for a closer look

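Among 98 groups of 4 knockout libraries (2 for each member), 7 held a value set apart from the other 3, by the ratio of the gap to the nearest library over the whole range. Chance alone gives such a value in about 1 of 20 groups. *Ccnd2* was lowest in euglycemic library 4, at 46.7 FPKM against 92.2 to 95.7 in the others (ratio 0.948), and *Pcna* was lowest there too, at 6.86 against 14.7 to 16.7 FPKM (0.849). *Cdk4* was lowest in euglycemic library 2 at 18.02 against 21.4 to 21.9 FPKM (0.878), and *Ccnd3* in euglycemic library 3 at 0.634 against 0.914 to 0.970 FPKM (0.848). In the diabetic group *E2f1* was lowest in library 2 at 1.59 against 2.39 to 2.56 FPKM (0.841), as was *Rrm2* at 2.91 against 4.90 to 5.39 FPKM (0.837), and *Plk1* was highest in library 1 at 0.201 against 0 to 0.0316 FPKM (0.830). Euglycemic library 4 also had the lowest inferred depth (9496650 fragments) and the most genes at 0 (52.2%), whose part in these values was not tested.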

How the results depend on the processing

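Counts of called members depended on the settings. In diabetic mice against WT, where 0 of the tested members were called, the count was 1 with median-of-ratios scaling, 3 with library weights, 1 without diabetic library 1 and euglycemic library 4 together, 4 with unadjusted p, and 0 to 1 when each library was left out. In euglycemic mice (1 called) it was 0 with no filter, with pseudocount 0.1, as TPM, with only the groups compared, with the replicate block and, with the tested genes kept, without WT library 2 or 3. It was 7 with library weights, 9 with unadjusted p and 0 to 1 over single libraries left out. For both groups (1 called) it was 0 with no filter, pseudocount 0.1, the replicate block and without WT library 2 or 3 with the tested genes kept, 5 with library weights, 7 with unadjusted p and 0 to 1 over single libraries. Diabetic against euglycemic mice gave 0, but 1 with library weights and 2 with unadjusted p. *Ccnb2* was called in 16 of 21 alternatives that tested it for both groups (log2 fold change -2.17 to -1.003, adjusted p 0.000536 to 0.155), in 9 for euglycemic mice (-2.50 to -1.02, adjusted p 0.000980 to 0.206) and in 4 for diabetic mice (adjusted p 0.00345 to 0.315).

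Of the other cell cycle lists, diabetic mice against WT gave 1 call, but 2 with pseudocount 0.1, median of ratios or both libraries left out, 3 with library weights, 7 with unadjusted p and 1 to 2 over single libraries. Euglycemic mice gave 0, but 1 with median of ratios, 14 with library weights, 9 with unadjusted p and 0 to 3 over single libraries. Diabetic against euglycemic mice gave 0, but 5 with weights, 10 with unadjusted p and 0 to 1 over single libraries. Both groups gave 2, but 1 with no filter or the replicate block, 7 with weights, 6 with unadjusted p and 0 to 2 over single libraries. Library weights called 551 to 2287 of all genes in the 4 comparisons, against 1 to 118 without them.

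Among the low members, 5 of 19 with exact p of 0.05 or less over both groups became 3 with pseudocount 0.1 or as TPM and 2 to 9 over single libraries, and 2 in diabetic mice became 0 with pseudocount 0.1 and 1 as TPM. Between the knockout groups the count was 0 to 1 over single libraries, with 1 without diabetic library 4. With WT or the knockout group reduced by 1 library, a single group against WT cannot reach an exact p of 0.05.

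Some small log2 fold changes over both groups turned. *Ccnd2* was 0.033 with the replicate block, 0.020 with both libraries left out and -0.39 to 0.049 over single libraries. *Cdk4* was 0.13 with library weights, 0.015 with both left out and -0.19 to 0.15 over single libraries, *Pcna* was -0.18 to 0.19, and *Trp53* was -0.075 with the replicate block and -0.19 to 0.24. Of 716 values of single genes under alternatives, 659 kept direction and side of the threshold, 17 passed it, 21 lost it and 19 turned. The cause of these changes was not tested.

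Libraries share replicate numbers across groups, but same-numbered libraries did not deviate together (mean correlation -0.132 over 10 pairs, against 0.0433 for 30 others), so the pairing is not supported. The replicate block took calls over all genes from 109 to 45 in diabetic mice, from 62 to 20 in euglycemic mice and from 118 to 53 over both groups. At these depths most mitosis genes rest on few fragments, and a listed 0 does not show absence.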
